A study of Homo sapiens with 9 samples.

Results

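The genes of folding and quality control in the endoplasmic reticulum (ER) were followed in MCF10A, an established line of human mammary epithelium that does not form tumours. The 40 genes were taken from the 56609 symbols of the deposited expression table by symbol, from a list drawn up by function, and all 40 were found. This list, and the gene lists it is later set beside, were chosen with earlier results of these data known. They fall into 17 folding genes (chaperones, their cofactors, prolyl isomerases and the lectin cycle), 12 disulfide genes (protein disulfide isomerases and the oxidases and reductases that serve them) and 11 degradation genes (ER-associated degradation). The comparison rests on 3 groups of 3 samples: cells kept 16 h in 10 mM calcium with the calcium ionophore ionomycin (1 mM as labelled), cells given 10 nM transforming growth factor beta 3 (TGFb3) for 16 h, and untreated cells as the control. All groups shared a medium with horse serum, EGF, hydrocortisone, cholera toxin and insulin. Calcium and ionomycin were given together, so their effects cannot be told apart, and no vehicle control is named. Whether the replicates were grown as separate cultures is not stated in the labels. The p-values therefore reflect how these samples scatter, and that scatter may be technical in origin.

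Proteins of the secretory pathway fold in the ER lumen, which is also a main calcium store of the cell and where many of the chaperones bind calcium. HSPA5 and its partners hold unfolded chains, disulfide isomerases pair cysteines, and chains that fail to fold are passed back to the cytosol and degraded by the proteasome. When unfolded chains gather, the unfolded protein response raises transcription of these genes through ATF6 and XBP1, which act at short promoter sequences called the ER stress element (ERSE), its variant ERSE-II, and the unfolded protein response element (UPRE).

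These elements were searched for because they are the textbook link between the genes, and every exact match to ERSE or ERSE-II among the ER genes is printed here, whatever the size of the gene's change. RefSeq promoter windows (GRCh38.p14, the build also named hg38), each running from 250 bases before to 50 bases after a RefSeq start, were matched by symbol for 37 of the 40 genes. PDIA3, DERL1 and DERL3 had no match. The sequences are read 5′ to 3′ along the gene's own strand, with the match in capitals, up to 20 bases on either side and no base past the start. An ERSE match reads CCAAT, then 9 bases of any kind, then CCACG, and an ERSE-II match reads ATTGG, then 1 base of any kind, then CCACG. Either may lie on the other strand, where its reverse complement is seen. No ERSE overlaps an ERSE-II among these genes.
HSPA5 (ERSE, chr9:125241371-125241429, minus strand): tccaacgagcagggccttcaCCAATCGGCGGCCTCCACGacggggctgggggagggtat
HSP90B1 (ERSE, chr12:103930196-103930254, plus strand): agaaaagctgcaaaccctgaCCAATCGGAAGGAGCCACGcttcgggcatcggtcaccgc
HSP90B1 (ERSE, chr12:103930301-103930359, plus strand): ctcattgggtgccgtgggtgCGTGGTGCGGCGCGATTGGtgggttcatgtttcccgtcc
CALR (ERSE, chr19:12938364-12938422, plus strand): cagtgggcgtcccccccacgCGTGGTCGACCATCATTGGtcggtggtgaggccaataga
CRELD2 (ERSE, chr22:49918534-49918592, plus strand): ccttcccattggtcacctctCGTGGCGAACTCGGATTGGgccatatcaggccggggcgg
CANX (ERSE, chr5:179698758-179698816, plus strand): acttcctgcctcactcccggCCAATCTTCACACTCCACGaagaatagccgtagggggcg
PDIA6 (ERSE, chr2:10812833-10812891, minus strand): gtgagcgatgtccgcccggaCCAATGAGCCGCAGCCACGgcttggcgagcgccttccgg
ERO1B (ERSE, chr1:236282163-236282208, minus strand): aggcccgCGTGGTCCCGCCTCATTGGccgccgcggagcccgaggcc
HYOU1 (ERSE-II, chr11:119057360-119057410, minus strand): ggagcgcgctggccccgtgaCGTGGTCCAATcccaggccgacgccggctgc
HYOU1 (ERSE-II, chr11:119057254-119057304, minus strand): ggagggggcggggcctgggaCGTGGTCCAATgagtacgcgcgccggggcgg
SDF2L1 (ERSE-II, chr22:21642094-21642144, plus strand): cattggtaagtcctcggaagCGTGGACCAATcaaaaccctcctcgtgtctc
HERPUD1 (ERSE-II, chr16:56932005-56932055, plus strand): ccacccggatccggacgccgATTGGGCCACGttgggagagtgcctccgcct
An exact ERSE was found in 7 of the 37 genes (HSPA5, HSP90B1, CALR, CRELD2, CANX, PDIA6 and ERO1B), or 18.9%. It was found in 25 of all 27305 genes with a window, or 0.0916%, and in 16 of the 9511 tested genes with a window, or 0.168%. ERSE-II was found in HYOU1, SDF2L1 and HERPUD1, or 8.11% of the 37 genes, against 0.147% of the tested genes. UPRE (TGACGTGG, either strand) was found in 5 of the 37 genes (HYOU1, TXNDC5, TXNDC11, DNAJC10 and UBE2J1), or 13.5%, against 1.15% of the tested genes. In HYOU1 the UPRE overlaps the farther ERSE-II. The amino acid response element TGATGNAAT, on which ATF4 acts, was found in 0 of the 37 genes and in 0.704% of the tested genes. A match is a description of the letters in this window and not a shown binding site. The elements were picked as the known link between such genes, with earlier results of these data known. Their larger shares among the ER genes are therefore no independent result.

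The table holds TPM (a length-normalised share of the transcript pool with the same total in every sample), so sequencing depth is unknown. The samples of a group correlated at 0.987 to 0.991 over the tested genes and samples of different groups at 0.925 to 0.944. The 8 epithelial markers summed to 6557 to 6804 TPM in high calcium, 4076 to 4758 TPM in TGFb3 and 3382 to 3571 TPM in control. KRT5, KRT17, TP63, EGFR, CDH1, EPCAM and KRT18 were all well expressed. The remaining marker, KRT14, was lower, at 15.92 to 28.61 TPM in high calcium, 13.45 to 26.6 TPM in TGFb3 and 2.263 to 10.57 TPM in control. PTPRC, CD3E, CDH5, ADIPOQ and COL1A2, which define other cell types, were listed at 0 in all 9 samples. The 5 fibroblast markers summed to 9.907 to 12.47 TPM in high calcium, 28.3 to 31.92 TPM in TGFb3 and 2.602 to 3.515 TPM in control, through COL1A1 and DCN. The 4 blood markers summed to 13.88 to 37.91 TPM in high calcium, 8.444 to 13.57 TPM in TGFb3 and 1.355 to 3.003 TPM in control, almost all of it the lysosomal protein CD68. The 3 endothelial and the 3 adipocyte markers summed to less than 1 TPM in every sample. Mitochondrially encoded RNA took 11.13 to 11.86% of TPM in high calcium, 22.17 to 23.34% in TGFb3 and 21.66 to 23.3% in control, and MALAT1, a nuclear RNA, was at 388.0 to 448.8 TPM in high calcium, 191.4 to 216.1 TPM in TGFb3 and 123.6 to 208.5 TPM in control. The part of these shifts in the results below was not tested. In bulk RNA, fewer cells of a kind and less RNA per cell cannot be told apart.

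The ER genes together took far more of the transcript pool in high calcium than in the other groups. They summed to 22008 ± 78.6 TPM in high calcium, 6981 ± 68.1 TPM in TGFb3 and 5467 ± 89.3 TPM in control (SD, n = 3 each). With mitochondrial genes left out of the total, that was 2.49%, 0.903% and 0.707% of TPM in the same 3 groups. Folding genes made up most of it, with 17109 ± 146 TPM in high calcium, 4714 ± 80.6 TPM in TGFb3 and 3659 ± 53.9 TPM in control. Disulfide genes summed to 3813 ± 58.8, 1753 ± 15.2 and 1418 ± 42.5 TPM, and degradation genes to 1086 ± 22.1, 514 ± 6.49 and 389.7 ± 8.25 TPM, in the same order.

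**Figure D1:**
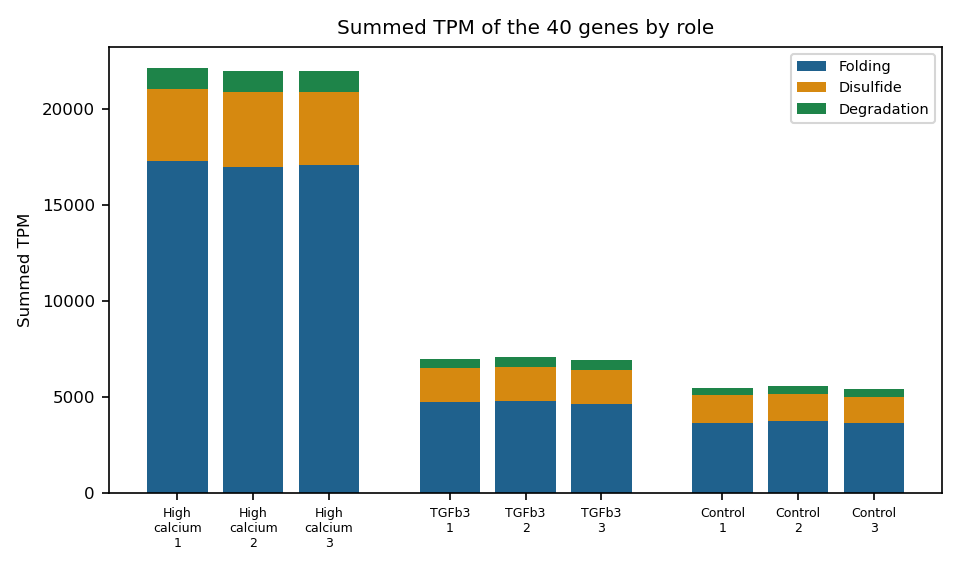
Summed TPM of the 40 genes in each of the 9 samples, stacked by role. The 3 high calcium bars reach about 22008 TPM on average, against 6981 TPM in TGFb3 and 5467 TPM in control, and most of each bar is folding genes.

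In high calcium against control, 38 of the 39 tested genes rose and 0 fell. The test was limma on log2(TPM + 1), called at a Benjamini-Hochberg adjusted p under 0.05 over all 13968 genes with a mean of at least 1 TPM, of which 46.1% were called higher and 17.0% lower. FKBP11 was not called and DERL3 was too low to test. In 38 genes every high calcium sample was above every control sample, and in 0 below, where 49.4% and 19.6% of all tested genes were. A rise by a log2 of at least 1 was seen in 30 of the genes, against 10.5% of all tested genes, and a fall of that size in 0, against 2.56%. The median log2 difference was 2.02 for folding, 1.17 for disulfide and 1.31 for degradation genes, against 0.22 for all tested genes. Median ratio scaling took that 0.22 to 0.01 and the share of all calls that were higher from 73% to 50.4%, quantile normalisation to 47.2% and leaving out mitochondrial genes to 55.1%. The number of ER genes called higher was 37, 38 and 37 under these 3 scalings, where 4240, 3991 and 4649 of all genes were. Rises by a log2 of at least 1 went from 30 ER genes to 24, 26 and 26. Over all genes they went from 1465 to 1002, 845 and 1166.

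**Figure D2:**
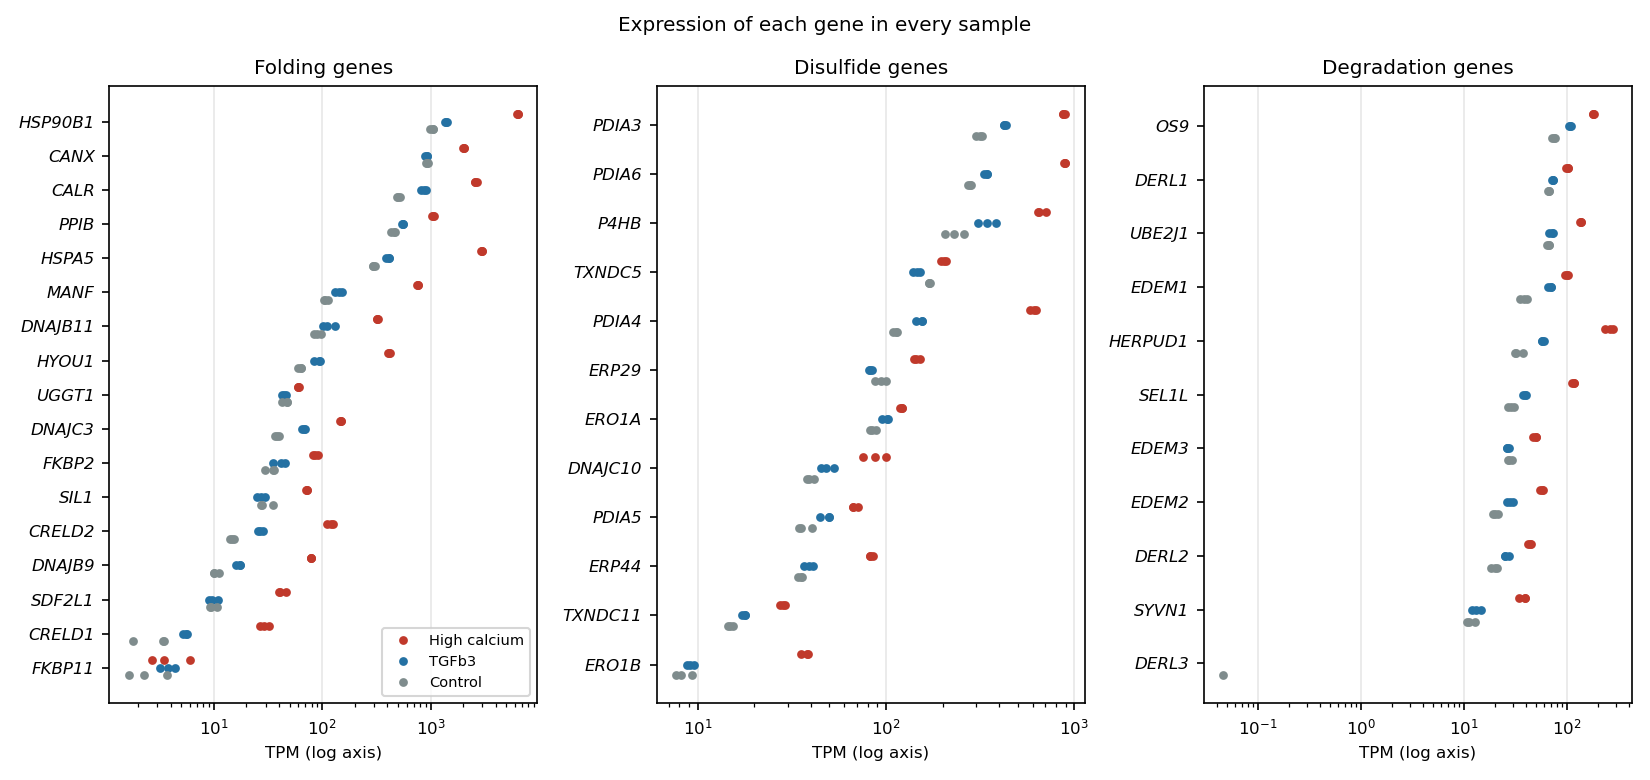
TPM of each gene in every sample on a log axis, in panels by role, with genes ordered by their control mean. Each point is 1 sample, values of 0 cannot be drawn (DERL3 was at 0.0467 TPM in 1 control and at 0 in the other 8 samples), and the high calcium points lie to the right of the control points in 38 genes.

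HSPA5 (BiP, the ER member of the HSP70 family; hg38 chromosome 9, 125234853 to 125241330) had the largest difference of the 40 on the log2(TPM + 1) scale. With a pseudocount of 0.1 in place of 1, CRELD1 stood above it, at log2 3.35 against 3.31 for HSPA5. It was at 2971, 2949 and 2966 TPM in high calcium, 417, 409.6 and 389 TPM in TGFb3, and 294, 307 and 294 TPM in control. The high calcium samples stood apart from all 6 others, and the rise over control was log2 3.31 ± 0.038 (SE, limma adjusted p = 1.5e-11), or 3.08 above the median of all genes, which placed HSPA5 16th of the 13968 tested genes. HSP90B1 (GRP94, the ER member of the HSP90 family; chromosome 12, 103930107 to 103953645) was at 6383, 6280.03 and 6372 TPM in high calcium, 1353, 1407 and 1383 TPM in TGFb3, and 1052, 1056 and 995 TPM in control. By mean TPM, HSP90B1 was number 3 among nuclear genes in high calcium, number 70 in TGFb3 and number 98 in control. HSPA5 was number 19 in high calcium, number 270 in TGFb3 and number 396 in control.

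HSP90B1 rose by log2 2.62 ± 0.039. HYOU1, an ER chaperone of the HSP110 type that also exchanges nucleotide on HSPA5, was at 425, 411 and 404 TPM in high calcium, 96.2, 94.4 and 84.4 TPM in TGFb3, and 59.8, 63.5 and 64.3 TPM in control. SIL1, the other nucleotide exchange factor, was at 72.8, 71.3 and 72.5 TPM in high calcium, 29.5, 24.9 and 27.5 TPM in TGFb3, and 34.8, 27.0 and 27.8 TPM in control. HYOU1 rose by log2 2.70 ± 0.054 and SIL1 by 1.25 ± 0.093 (limma adjusted p = 3.9e-10 and 1.5e-06). SIL1 overlaps SNHG4 and MATR3 on the other strand, and whether the libraries kept strand is not given in the sources used here. DNAJB9 likewise overlaps PNPLA8 and THAP5, PDIA6 overlaps ATP6V1C2, and DERL2 overlaps MIS12. MANF, a secreted protein that binds HSPA5 and slows its nucleotide exchange, was at 769, 757 and 768 TPM in high calcium, 142, 152 and 130.4 TPM in TGFb3, and 103, 106 and 113 TPM in control, a rise of log2 2.82 ± 0.056 in high calcium.

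Among the J-domain proteins, which stimulate HSPA5, DNAJB9 (ERdj4) rose most. It was at 79.6, 79.2 and 79.1 TPM in high calcium, 17.3, 17.3 and 16.0 TPM in TGFb3, and 10.0, 11.1 and 9.96 TPM in control. DNAJC3 (p58IPK) was at 149, 145 and 148 TPM in high calcium, 65.7, 68.6 and 69.0 TPM in TGFb3, and 36.4, 38.2 and 39.7 TPM in control. DNAJB11 (ERdj3) was at 321, 329 and 318 TPM in high calcium, 101, 131 and 110.4 TPM in TGFb3, and 90.1, 97.5 and 84.5 TPM in control. All groups were apart in all 3 genes, and the rises over control in high calcium were log2 2.82 ± 0.058, 1.92 ± 0.043 and 1.82 ± 0.085 for DNAJB9, DNAJC3 and DNAJB11. SDF2L1, a partner of DNAJB11, was at 46.8, 41.0 and 40.3 TPM in high calcium, 10.9, 9.06 and 9.55 TPM in TGFb3, and 9.16, 10.6 and 9.49 TPM in control. SDF2L1 was apart from control in high calcium (log2 2.02 ± 0.09) and overlapped it in TGFb3.

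The lectin cycle holds glycoproteins until they fold, with CALR as its soluble and CANX as its membrane-bound chaperone. CALR (calreticulin; chromosome 19, 12938578 to 12944489) was at 2656, 2593 and 2561 TPM in high calcium, 909, 875 and 822 TPM in TGFb3, and 491, 517 and 499 TPM in control. CANX (calnexin) was at 2023, 1977 and 2031 TPM in high calcium, 894, 925 and 917 TPM in TGFb3, and 905, 918 and 940.1 TPM in control. CALR rose by log2 2.37 ± 0.044 and CANX by 1.13 ± 0.035 in high calcium (limma adjusted p = 3.4e-10 and 4.3e-09). The ratio of CALR to CANX within a sample, which no scaling of the library can change, was 1.30 ± 0.03 in high calcium, 0.953 ± 0.06 in TGFb3 and 0.546 ± 0.017 in control, without overlap between any of the groups (exact permutation p = 0.1 for each pair of groups, which is as low as this design can go). UGGT1, which tags unfolded glycoproteins for another round, had the smallest called rise of the folding genes, with 60.4 ± 0.636 TPM in high calcium, 44.8 ± 1.96 TPM in TGFb3 and 45.5 ± 2.65 TPM in control (log2 0.40 ± 0.053, limma adjusted p = 9.6e-05 for high calcium against control).

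The prolyl isomerases differed among themselves. PPIB (cyclophilin B) was at 1065, 1049 and 1027 TPM in high calcium, 561, 559.7 and 549 TPM in TGFb3, and 464, 473 and 429 TPM in control. FKBP2 was at 91.2, 82.5 and 85.1 TPM in high calcium, 45.5, 34.8 and 41.8 TPM in TGFb3, and 35.4, 29.9 and 36.0 TPM in control. Both rose in high calcium, PPIB by log2 1.20 ± 0.042 and FKBP2 by 1.33 ± 0.1. FKBP11 was the only tested gene of the 40 that overlapped between high calcium and control, with 3.47, 2.69 and 5.97 TPM in high calcium, 3.17, 4.41 and 3.81 TPM in TGFb3, and 1.64, 2.26 and 3.66 TPM in control. Its log2 difference of 0.51 ± 0.26 was not called (limma adjusted p = 0.12, range over 18 alternatives 0.035 to 0.73). It was called without control 3 (log2 0.73) or without high calcium 2 (log2 0.70).

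The cysteine-rich, EGF-like proteins CRELD1 and CRELD2 were low in control and both rose in high calcium. CRELD2 was at 127, 121 and 110.4 TPM in high calcium, 26.4, 28.6 and 25.4 TPM in TGFb3, and 15.5, 14.2 and 14.7 TPM in control. CRELD1 was at 26.6, 32.4 and 28.8 TPM in high calcium, 5.66, 5.54 and 5.24 TPM in TGFb3, and 1.79, 3.37 and 3.48 TPM in control. The rises in high calcium were log2 2.93 ± 0.067 for CRELD2 and 2.99 ± 0.17 for CRELD1. Their ratio, CRELD2 to CRELD1, was 4.12 ± 0.57 in high calcium and 5.69 ± 2.6 in control, a difference that did not exceed the spread (exact permutation p = 0.5). CRELD2 overlaps ALG12 on the other strand.

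All 12 disulfide genes rose in high calcium, over a wide range. PDIA4 (ERp72; chromosome 7, 149003062 to 149028641) was at 608, 627 and 579 TPM in high calcium, 155, 156 and 145 TPM in TGFb3, and 109, 113 and 114 TPM in control. PDIA6 (P5) was at 885, 893 and 894 TPM in high calcium, 344, 344 and 331 TPM in TGFb3, and 280.2, 283 and 273 TPM in control. PDIA3 (ERp57), which works with CALR and CANX, was at 874, 870.5 and 889 TPM in high calcium, 424, 435 and 424 TPM in TGFb3, and 315, 322 and 299 TPM in control. P4HB, the founding protein disulfide isomerase, was at 639, 709 and 653 TPM in high calcium, 342, 308 and 382 TPM in TGFb3, and 261, 229 and 205 TPM in control. In these 4 genes no sample of any group overlapped another group. The rises in high calcium were log2 2.42 ± 0.045 for PDIA4, 1.67 ± 0.033 for PDIA6, 1.49 ± 0.037 for PDIA3 and 1.53 ± 0.095 for P4HB. In each group PDIA4 had the lowest mean of the 4. The ratio of PDIA4 to P4HB was 0.908 ± 0.038 in high calcium, 0.446 ± 0.064 in TGFb3 and 0.49 ± 0.071 in control.

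The remaining isomerases and reductases rose less. ERP44, which retains oxidases in the early secretory pathway, was at 85.3, 82.2 and 82.6 TPM in high calcium, 39.2, 40.8 and 36.8 TPM in TGFb3, and 35.8, 34.3 and 35.2 TPM in control. DNAJC10 (ERdj5), a reductase that acts before degradation, was at 75.1, 87.9 and 99.4 TPM in high calcium, 47.8, 52.8 and 45.0 TPM in TGFb3, and 39.2, 41.6 and 38.1 TPM in control. Rises in high calcium were log2 1.22 ± 0.048 for ERP44 and 1.11 ± 0.096 for DNAJC10. PDIA5 and TXNDC11 both rose by 0.88, ERP29, a relative with no redox active site, by 0.63, and TXNDC5 by 0.26 ± 0.04 (limma adjusted p = 0.00031). TXNDC5 was at 202, 209 and 197 TPM in high calcium, 151, 139 and 146 TPM in TGFb3, and 169, 170.3 and 169 TPM in control. Its difference from control in high calcium was 0.02 after median ratio scaling and 0.06 with mitochondrial genes left out, and was not called in either (range of limma adjusted p over 18 alternatives 0.00027 to 0.73).

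The paired oxidases that recharge the isomerases, ERO1A and ERO1B, differed in high calcium. ERO1B (chromosome 1, 236215555 to 236281985) was at 38.4, 38.0 and 35.4 TPM in high calcium, 8.75, 9.14 and 9.52 TPM in TGFb3, and 9.32, 8.15 and 7.68 TPM in control. ERO1A was at 121, 118 and 121 TPM in high calcium, 95.7, 103 and 101 TPM in TGFb3, and 82.0, 84.3 and 88.6 TPM in control. ERO1B rose by log2 2.03 ± 0.079 and ERO1A by 0.49 ± 0.044 in high calcium (limma adjusted p = 1.8e-08 and 5.3e-06). The ratio of ERO1B to ERO1A was 0.318, 0.322 and 0.292 in high calcium, 0.0914, 0.0885 and 0.0943 in TGFb3, and 0.114, 0.0967 and 0.0867 in control. It was 3.15-fold higher in high calcium than in control (exact permutation p = 0.1, which cannot be lower with groups of 3, and 0.125 after Benjamini-Hochberg adjustment over the 30 comparisons of 10 ratios). ERO1A remained the more abundant of the pair in all 9 samples. ERO1B overlaps GPR137B on the other strand.

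All 10 tested degradation genes rose in high calcium. HERPUD1, a membrane scaffold of the ubiquitin ligase complex (chromosome 16, 56932048 to 56944863), was at 237, 279 and 266 TPM in high calcium, 57.3, 60.2 and 57.2 TPM in TGFb3, and 31.9, 37.6 and 31.6 TPM in control. SEL1L, the adaptor of the ligase SYVN1 (HRD1), was at 118, 118 and 113 TPM in high calcium, 38.0, 39.1 and 40.4 TPM in TGFb3, and 27.2, 28.8 and 31.1 TPM in control. SYVN1 was at 39.8, 39.4 and 34.7 TPM in high calcium, 14.7, 12.2 and 13.1 TPM in TGFb3, and 11.2, 10.7 and 12.8 TPM in control. The rises in high calcium were log2 2.92 ± 0.077, 1.97 ± 0.054 and 1.63 ± 0.092 for HERPUD1, SEL1L and SYVN1. SYVN1 overlaps the abundant ribosomal gene FAU on the same strand and MRPL49 on the other. The ubiquitin-conjugating enzyme UBE2J1 was at 139, 135 and 138 TPM in high calcium, 68.0, 72.6 and 73.7 TPM in TGFb3, and 65.2, 67.7 and 67.3 TPM in control, a rise of log2 1.03 ± 0.042 in high calcium. OS9, a lectin that brings substrates to SEL1L, was at 181, 184 and 182 TPM in high calcium, 110.5, 107 and 106 TPM in TGFb3, and 77.6, 72.7 and 75.8 TPM in control, a rise over control of log2 1.26 ± 0.038 in high calcium.

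The EDEM family trims mannose from glycoproteins to be degraded. EDEM1 was at 103, 101 and 96.2 TPM in high calcium, 66.1, 71.0 and 70.6 TPM in TGFb3, and 34.9, 38.9 and 41.5 TPM in control. EDEM2 was at 58.4, 57.1 and 55.1 TPM in high calcium, 26.5, 30.1 and 28.0 TPM in TGFb3, and 20.1, 21.5 and 19.1 TPM in control. EDEM3 was at 47.3, 50.2 and 50.0 TPM in high calcium, 26.4, 26.3 and 27.5 TPM in TGFb3, and 26.7, 27.7 and 29.7 TPM in control. All 3 rose in high calcium, by log2 1.36 ± 0.064, 1.45 ± 0.063 and 0.79 ± 0.053, while in TGFb3 EDEM1 and EDEM2 rose and EDEM3 was at -0.07 ± 0.053 (limma adjusted p = 0.31). Of the derlins, membrane proteins of the exit channel, DERL2 was at 42.3, 44.9 and 43.9 TPM in high calcium, 25.2, 27.6 and 25.4 TPM in TGFb3, and 20.1, 20.9 and 18.6 TPM in control. DERL1 was at 99.4, 102 and 103 TPM in high calcium, 74.1, 73.4 and 72.6 TPM in TGFb3, and 65.3, 67.3 and 67.5 TPM in control. Both rose in both treatments, DERL2 by log2 1.10 and DERL1 by 0.60 in high calcium. DERL3 was listed at 0 in 8 of the 9 samples and at 0.0467 TPM in 1 control.

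TGFb3 against control gave many small rises among the ER genes. Of the 39 tested genes, 28 rose, 2 fell and 9 were not called, where 26.5% of all tested genes were called higher and 33.1% lower. By role, 12 of 17 folding, 9 of 12 disulfide and 7 of 10 degradation genes rose, and 0 rose or fell by a log2 of at least 1, against 6.19% and 4.07% of all tested genes. The samples did not overlap in 28 genes that were higher and 2 that were lower, against 28.4% and 35.4% of all tested genes. The median log2 difference was 0.38, against -0.06 for all tested genes. On the log2(TPM + 1) scale the 5 largest rises were EDEM1 (log2 0.84 ± 0.064), CRELD2 (0.82 ± 0.067), DNAJC3 (0.82 ± 0.043), CALR (0.79 ± 0.044) and HERPUD1 (0.78 ± 0.077), with limma adjusted p from 1.6e-07 to 1.3e-05. CRELD1 followed at 0.77 ± 0.17 (limma adjusted p = 0.0026, 0.0013 to 0.012 over 18 alternatives), and its place depended on the setting: it was first with a pseudocount of 0.1 (0.96, against 0.85 for EDEM1) and first without control 2. HSPA5 rose by 0.44 ± 0.038 and HSP90B1 by 0.42 ± 0.039 in TGFb3.

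The 2 genes that fell in TGFb3 were both disulfide genes. TXNDC5 fell by log2 0.22 ± 0.04 (limma adjusted p = 0.001) and ERP29 by 0.18 ± 0.051 (limma adjusted p = 0.01), although ERP29 was not called after median ratio scaling (log2 -0.13, adjusted p = 0.073). ERP29 was at 141, 145 and 151 TPM in high calcium, 81.8, 81.5 and 84.2 TPM in TGFb3, and 94.4, 99.6 and 87.6 TPM in control. Among the genes not called in TGFb3 were CANX (log2 -0.01 ± 0.035), SDF2L1 (0.01 ± 0.09), UGGT1 (-0.02 ± 0.053), SIL1 (-0.12 ± 0.093) and ERO1B (0.11 ± 0.079). CANX was called lower in TGFb3 after quantile normalisation (-0.11).

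Several of the small TGFb3 calls were lost or gained when single samples were left out. The call of FKBP2 (log2 0.26 ± 0.1, limma adjusted p = 0.047) was lost in 10 of 18 alternatives, among them without control 1 (0.29) or 2 (0.17), without TGFb3 1 (0.17) or 3 (0.23), and without any of the 3 high calcium samples (0.26), with adjusted p of 0.056 to 0.17. The call of ERP44 (log2 0.14 ± 0.048) was lost without control 2 (0.13) and without TGFb3 1 (0.14) or 2 (0.11), and that of DNAJC10 (0.28 ± 0.096) without control 1 (0.28) or 3 (0.26) and without TGFb3 1 (0.29) or 2 (0.22). SYVN1, not called in TGFb3 (0.19 ± 0.092), was called without control 3 (0.26), and UBE2J1 (0.10 ± 0.042) without TGFb3 1 (0.13). FKBP11 (0.48 ± 0.26) was called without control 3 (0.70).

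**Figure D3:**
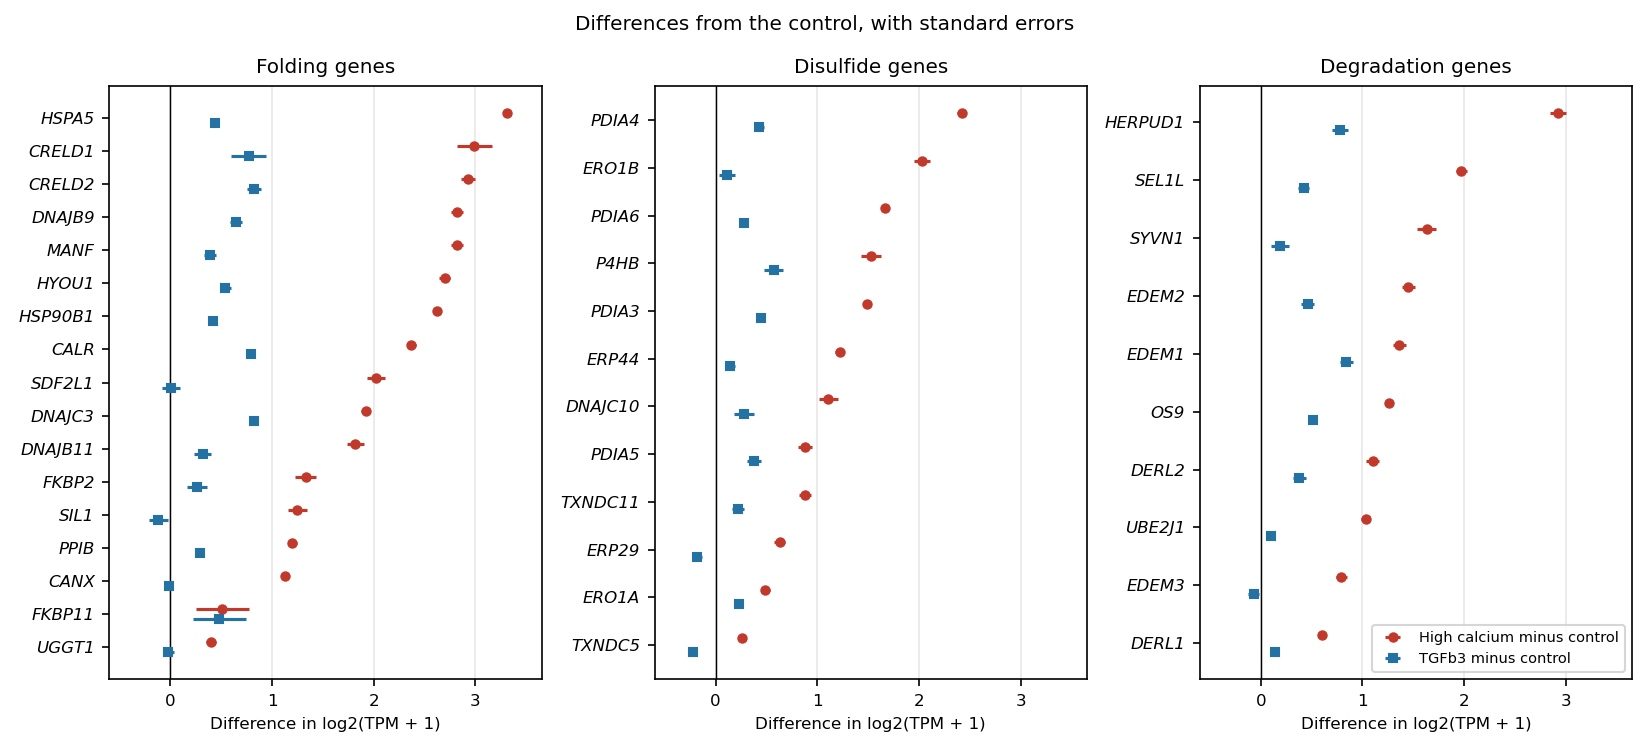
Difference in log2(TPM + 1) from the control for the 39 tested genes, in panels by role and ordered by the high calcium difference, with standard errors from the limma fit (n = 3 per group). Circles are high calcium minus control and squares TGFb3 minus control. High calcium differences run from 0.26 (TXNDC5) to 3.31 (HSPA5) and TGFb3 differences from -0.22 (TXNDC5) to 0.84 (EDEM1), and both share the same control samples.

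High calcium against TGFb3, which tests the difference between the treatments directly, called 38 of 39 genes higher and 0 lower, against 50.4% and 16.2% of all tested genes. By a log2 of at least 1, 22 genes were higher and 0 lower, against 10.7% and 3.64% of all tested genes, and in 38 genes all high calcium samples were above all TGFb3 samples and in 0 below, against 53.1% and 18.1%. After median ratio scaling 50.0% of all calls in this comparison were higher, after quantile normalisation 51.1% and with mitochondrial genes left out 59.5%, against 75.7% for TPM as deposited. The number of ER genes called higher was 37 under each of these 3 scalings. Those higher by a log2 of at least 1 went from 22 to 17, 18 and 17, and from 1498 to 930, 874 and 1198 over all genes. The difference between treatments was log2 2.87 ± 0.038 for HSPA5, 2.43 ± 0.056 for MANF and 2.01 ± 0.09 for SDF2L1, and 0.52 ± 0.064 for EDEM1 and 0.42 ± 0.053 for UGGT1. FKBP11 was not called (0.03 ± 0.26, limma adjusted p = 0.93). ERO1A, at 0.26 ± 0.044 (limma adjusted p = 0.00043), was -0.03 after median ratio scaling, 0.06 after quantile normalisation and 0.07 with mitochondrial genes left out, and was not called in any of those 3 (range of adjusted p over 18 alternatives 0.00036 to 0.61).

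The promoter matches shown above were set beside these differences. In high calcium against control, the 10 genes with an ERSE or ERSE-II had a median log2 difference of 2.49 (1.13 to 3.31), and the 27 with a window but neither match had 1.25 (0.26 to 2.99). In TGFb3 against control these medians were 0.43 and 0.32. Of the 7 ERSE genes 5 are folding genes, and of the 3 ERSE-II genes 2 are. Folding genes had a median of 2.02 in high calcium against control, disulfide genes 1.17 and degradation genes 1.31. The part of role in the difference between genes with and without a match was not tested. Genes and elements were chosen with earlier results of these data known. The 5 genes with a UPRE, HYOU1 among them, had a median of 1.03 (0.26 to 2.70) in high calcium against control and 0.22 in TGFb3 against control. All 37 genes with a window had medians of 1.45 and 0.38. CRELD1, MANF and DNAJB9 were among the genes with large rises and no match in the window. Outside the 40 genes, 9 tested genes hold an exact ERSE, and 8 of them rose in high calcium, where 48.4% of the other tested genes with a window did. They are FICD, an enzyme that modifies HSPA5 (log2 2.43), the transcription factor XBP1 (1.56), TMEM120A (1.32), SERP1, a translocon-associated protein (1.23), TRIM5 (1.11), SYNPO (0.90), the mannosyltransferase ALG12 (0.86) and EIF2A (0.45). The match of ALG12 is the same bases as that of CRELD2, and SERP1 and EIF2A share one match. The ninth, ZNF17, was at 0.08 and not called. In TGFb3 against control 4 of these 9 genes rose and 1 fell, where 28.2% of the other tested genes with a window rose and 36.1% fell. SYNPO (log2 2.35), TMEM120A (0.50), XBP1 (0.44) and TRIM5 (0.35) were called higher in TGFb3 and EIF2A (-0.30) lower. SYNPO was lower in high calcium than in TGFb3 (log2 -1.45, limma adjusted p = 1.5e-06). Of 11 other tested genes with an ERSE-II, 5 rose and 3 fell in high calcium against control (median 0.16). Of the other tested genes with a window, 48.4% rose and 18.4% fell there. In TGFb3 against control 5 of the 11 rose and 4 fell (median -0.11), beside the 28.2% and 36.1% given above.

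Other ER quality control genes, from a list of 60 that holds none of the 40, moved less evenly. Of 57 tested, 38 rose, 4 fell and 15 were not called in high calcium against control, where 46.1% of all tested genes were called higher and 17.0% lower. After median ratio scaling 28 of them rose and 14 fell, where 4240 of all 13968 genes rose and 4174 fell. In TGFb3 against control 24 rose, 14 fell and 19 were not called, where 26.5% of all tested genes were called higher and 33.1% lower. The median log2 difference was 0.41 in high calcium and 0.10 in TGFb3. CLGN (calmegin), a relative of calnexin, was at 44.8, 43.4 and 46.4 TPM in high calcium, 1.99, 2.15 and 2.51 TPM in TGFb3, and 5.30, 4.92 and 4.52 TPM in control. CLGN was called higher in high calcium (log2 2.96) and lower in TGFb3 (-0.88), each against control, also in all 18 alternatives. High calcium against TGFb3 gave log2 3.83 ± 0.089 for CLGN (limma adjusted p = 5.8e-10). KDELR3, a receptor that returns escaped ER proteins, was at 50.0, 53.7 and 59.6 TPM in high calcium, 35.5, 40.3 and 33.1 TPM in TGFb3, and 6.75, 8.03 and 5.99 TPM in control. KDELR3 rose by log2 2.81 in high calcium and by 2.24 in TGFb3, while its relatives KDELR1 and KDELR2 rose by 1.00 and 1.12 in high calcium and by 0.47 and 0.51 in TGFb3, calls that all 18 alternatives shared.

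AGR2, a disulfide isomerase of mucus-secreting cells, was at 6.77, 8.54 and 8.78 TPM in high calcium, 0.41, 0.436 and 0 TPM in TGFb3, and 0, 0 and 0.694 TPM in control. CDNF, a relative of MANF, rose by log2 2.05 in high calcium, the sulfhydryl oxidase QSOX1 by 1.73 and the prolyl isomerase FKBP9 by 1.36. CDNF, like AGR2, was too low for the minimum of 5 TPM. Its difference ran from 1.68 to 3.12 over the other 17 alternatives. The 4 that fell in high calcium were TMX1 (log2 -0.40), UFD1 (-0.32), ERLIN1 (-0.15) and PRDX4 (-0.13). TMX1 and UFD1 kept that call in all 18 alternatives, ERLIN1 in 12 and PRDX4 in 13. In TGFb3 the largest falls beside CLGN were those of SVIP (-0.98) and QSOX2 (-0.91), and CNPY4 (0.88) and FKBP9 (0.85) rose.

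Genes of the cytosol and mitochondria that were listed as counterparts of the ER genes mostly fell against control. They are chaperones, cofactors, prolyl isomerases, thioredoxins and the ubiquitin ligase STUB1. Of 24 tested, 4 rose, 16 fell and 4 were not called in high calcium against control, where 46.1% of all tested genes were called higher and 17.0% lower. After median ratio scaling 0 of them rose and 19 fell, where 4240 of all 13968 genes rose and 4174 fell. In TGFb3 against control 1 rose and 22 fell, where 26.5% of all tested genes were called higher and 33.1% lower. In high calcium against TGFb3, 17 were higher and 4 lower, where 50.4% and 16.2% of all tested genes were. After median ratio scaling that comparison gave 8 higher and 7 lower, where 4210 and 4216 of all 13968 genes were. HSP90AA1, a cytosolic HSP90, was at 742, 766 and 794 TPM in high calcium, 890.3, 909.7 and 895 TPM in TGFb3, and 2192, 2259 and 2058 TPM in control. HSPA8, the constitutive cytosolic HSP70, was at 1295, 1156 and 1222 TPM in high calcium, 1661, 1428 and 1459.7 TPM in TGFb3, and 2295, 2317 and 2193 TPM in control. Both fell in both treatments, HSP90AA1 by log2 1.50 and 1.27 and HSPA8 by 0.89 and 0.58 in high calcium and TGFb3. Other falls in high calcium were those of DNAJA1 (log2 -1.17), HSPH1 (-0.98), CCT5 (-0.68) and CCT2 (-0.60), and in TGFb3 those of TRAP1 (-1.52), HSPD1 (-1.28), PPIF (-1.24), FKBP4 (-1.19) and HSPA9 (-1.08). The 4 that rose in high calcium were DNAJB1 (0.25), TXN2 (0.23), TXN (0.14) and FKBP1A (0.14). Their calls held in 16, 9, 15 and 5 of 18 alternatives. FKBP1A (0.27) was the 1 that rose in TGFb3. Of the mitochondrial chaperones, TRAP1 was at 129 ± 1.69 TPM in high calcium, 52.4 ± 2.42 TPM in TGFb3 and 152 ± 2.81 TPM in control. HSPA9 was at 752 ± 14, 341 ± 4.4 and 724 ± 21.9 TPM in the same groups, and high calcium against TGFb3 gave log2 1.29 ± 0.041 for TRAP1 and 1.14 ± 0.035 for HSPA9 (limma adjusted p = 4.6e-09 and 3.8e-09).

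Ratios within a sample put the ER gene over its cytosolic or mitochondrial counterpart, and no scaling of the library changes them. HSP90B1 to HSP90AA1 was 8.61, 8.20 and 8.03 in high calcium, 1.52, 1.55 and 1.55 in TGFb3, and 0.480, 0.467 and 0.484 in control. HSPA5 to HSPA8 was 2.29, 2.55 and 2.43 in high calcium, 0.251, 0.287 and 0.266 in TGFb3, and 0.128, 0.133 and 0.134 in control. The ER member was the less abundant of both pairs in control and the more abundant in high calcium, with ratios 17.4-fold and 18.4-fold higher than in control. In TGFb3 the same ratios were 3.22-fold and 2.03-fold higher than in control, also without overlap. With other counterparts the high calcium rises were smaller. HSP90B1 to HSP90AB1, another cytosolic HSP90, was 8.06-fold higher in high calcium and 2.28-fold higher in TGFb3 than in control. HSPA5 to the mitochondrial HSPA9 was 9.56-fold higher in high calcium and 2.88-fold higher in TGFb3 than in control. PPIB to PPIA was 1.14 ± 0.045 in high calcium, 0.69 ± 0.02 in TGFb3 and 0.428 ± 0.0097 in control. FKBP2 to FKBP1A was 0.187 ± 0.012 in high calcium, 0.0804 ± 0.0091 in TGFb3 and 0.0809 ± 0.011 in control, and overlapped between TGFb3 and control. In high calcium against control the exact permutation p was 0.1 for each ratio of this paragraph (0.125 adjusted over the 30 comparisons).

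**Figure D4:**
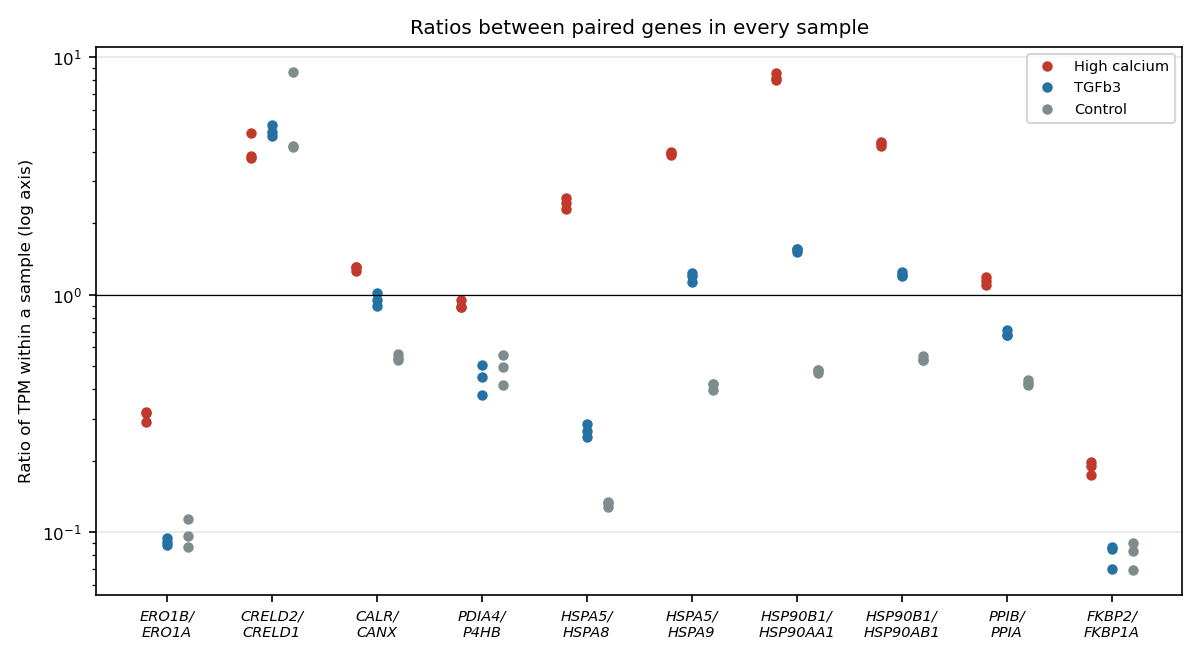
Ratio of TPM between paired genes within each sample on a log axis, with 1 point per sample. The HSP90B1 to HSP90AA1 ratio averages 8.28 in high calcium, 1.54 in TGFb3 and 0.477 in control, and the CRELD2 to CRELD1 ratio overlaps between all groups.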

How the data were processed

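RNA of MCF10A cells was extracted with Trizol and sequenced as paired ends on an Illumina NovaSeq, per the labels' protocols, and the submitters' processing notes name HISAT2 and hg38. The authors deposited TPM values for 58288 gene entries in 9 samples. No source used here names the quantifier, the annotation release or the strandedness, TPM keeps no depth, and 0 columns were left unmapped. Entries sharing a symbol were summed, giving 56609 symbols. Coordinates and overlaps come from GENCODE release 29 (39 of the 40 genes matched by versioned identifier, MANF without the version). Differences in log2(TPM + 1), which understate those of low genes, were tested with limma 3.58.1 in R 4.3.3 with all 9 samples, 3 groups and a variance trend, over the 13968 symbols whose mean reached 1 TPM, two-sided, at an adjusted p under 0.05. The fit was tested on simulated data. Single ratios were compared by exact permutation tests, two-sided. The members, gene lists and motifs were chosen with earlier results of these data known. Genes named by sample are those called with a log2 difference of at least 1 in high calcium against control, those overlapping there, and the paralog pairs and families. From TGFb3 the largest called differences were named, and up to 6 from each of the other lists, and a few further genes were named after their values were seen. Tables and figures were made in Python 3.11.15 with pandas 2.3.3 and matplotlib 3.10.9.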

Additional observations from a re-analysis of the deposited data

How the results depend on the processing

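The alternatives were a pseudocount of 0.1, no filter or a minimum of 5 TPM, median ratio scaling, quantile normalisation, leaving out mitochondrial genes, only the compared groups in the fit, no variance trend, leaving out each sample, and the replicate number as a block. Over these 18 alternatives the number of the 39 genes called higher was 37 to 39 in high calcium against control, 26 to 30 in TGFb3 against control and 37 to 38 in high calcium against TGFb3. The number called lower was 0 in both comparisons with high calcium under each of them, and 1 to 3 in TGFb3 against control, with 1 after median ratio scaling where TPM as deposited gave 2. ERO1A in high calcium against TGFb3 changed sign after median ratio scaling (log2 -0.03). Of single genes, calls moved for 2 in high calcium against control, 8 in TGFb3 against control and 1 in high calcium against TGFb3, and the cause was not tested. Over all genes, high calcium against control gave 6438 higher and 2378 lower calls, against 4240 and 4174 after median ratio scaling, 3991 and 4464 after quantile normalisation and 4649 and 3790 with mitochondrial genes left out. High calcium against TGFb3 gave 7038 and 2256, against 4210 and 4216, 4364 and 4181, and 5100 and 3468 in the same order. TGFb3 against control gave 3703 and 4623, against 4079 and 4234, 3795 and 4561, and 3745 and 4668. These counts are out of 13968 genes, or out of 14373 with mitochondrial genes left out. In the list of other ER genes, 4 fell in high calcium against control, against 14, 13 and 13 under these scalings and 2 to 5 with a sample left out, and 7 were lower in high calcium against TGFb3, against 14, 13 and 11. With the replicate number as a block, 38, 28 and 38 genes were called higher in the 3 comparisons and 0, 2 and 0 lower, the same numbers as without it. Over all 13968 genes the block gave 6258, 3589 and 6924 higher and 2299, 4455 and 2194 lower. The replicate numbers do not pair the samples by the data: deviations of same-numbered samples correlated at -0.075 to -0.004, and 0 of 9 samples correlated best with their own number. Depth is unknown, so no counting error can be given, and FKBP11, CRELD1 and DERL3 are the genes whose low TPM limits the precision most.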

Other observations

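Pseudogenes were sought only by name, as the symbol of 1 of the 40 genes followed by P and a number, so copies named otherwise are missed. This gave ERP29P1, with a mean of 0.0298 TPM over the 9 samples, and 2 pseudogenes of PDIA3, whose reads may have been split from the parent gene. PDIA3P1 was at 6.51, 6.82 and 6.68 TPM in high calcium, 5.43, 4.65 and 4.26 TPM in TGFb3, and 3.60, 3.46 and 2.66 TPM in control, and PDIA3P2 at 6.65, 7.06 and 6.79 TPM in high calcium, 3.03, 2.07 and 1.38 TPM in TGFb3, and 2.13, 1.49 and 0 TPM in control. PDIA3 itself had a mean of 539 TPM over the 9 samples.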
